A study of Mus musculus with 6 samples.

Results

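The interleukin-1 family was examined through 9 genes: the ligand genes Il1a, Il1b, Il33 and Il18, the antagonist gene Il1rn, the receptor genes Il1r1 and Il1rl1, the shared co-receptor gene Il1rap and the adaptor gene Myd88. They were matched by gene symbol among the 53801 genes of the deposited tables. The set was assembled because Il1rap was lower in line B64, so the Il1rap values are a description and carry no test. All libraries came from CT26, a colon carcinoma line of BALB/c mice, with 2 libraries (replicates A and B) in each group. The cells of all 3 groups had carried a retroviral barcode, had been grown as tumours in Balb/c mice, and had been selected with puromycin and cultured in RPMI medium. The parental line was the bulk population of such cells. Lines B04 and B64 were each grown from a single cell, so each is 1 clone, and their barcodes were the ones enriched by anti-PD1 and by anti-CTLA4 antibody in treated tumours, the immune checkpoint blockade (ICB) of the study. The labels give no treatment for any of the 6 samples. The study's discussion says that the clones were isolated following ICB treatment, while its methods name no treatment at isolation. According to that discussion, changes in B04 and B64 might have existed beforehand or have been induced by the treatment. The comparison asks how transcription in ICB-resistant clones differs from that of the parental population.

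Interleukin-1 alpha and beta bind the receptor encoded by Il1r1, interleukin-33 binds the receptor encoded by Il1rl1 (ST2), and each complex signals only after the accessory protein encoded by Il1rap joins it. The cytoplasmic TIR domains of the paired chains then recruit the adaptor MyD88, which assembles IRAK kinases and TRAF6 and activates NF-kB and MAP kinases. Interleukin-18 uses a separate receptor pair, Il18r1 and Il18rap, with the same adaptor, and the Il1rn product blocks Il1r1 without signalling. In epithelial tumours these ligands are known as alarm signals released by stressed or dying cells and as products of infiltrating myeloid cells.

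Library totals ranged from 19409204 to 23472012 expected counts. Sample titles speak of tumours, whereas the study's methods describe cultured lines, so marker genes were measured. Endothelial markers summed to at most 0.2 TPM (a transcript level scaled by length and library size) in any library, and the pan-leukocyte gene Ptprc did not exceed 0.01 TPM. Of 19 leukocyte markers, 5 exceeded 3 counts in some library, and Cd3e, Cd8a, Nkg7, S100a9, Ly6g and Cpa3 were among those at 0 in all 6. Their summed level was 24.04 and 25.53 TPM for the parental line, 34.51 and 34.56 TPM for B04, and 59.65 and 59.51 TPM for B64, nearly all of it from Cd68 and Cd14. Of the genes listed for CT26 carcinoma, Vim, Fn1 and Krt18 were above 10 TPM in every library, while the epithelial genes Epcam, Cdh1 and Vil1 did not exceed 0.06 TPM. Krt8 did not exceed 0.51 TPM. Cdx2 had 35 and 24 counts in parental replicates A and B and 0 in each B04 and B64 library. Col1a1 was at 9.9 and 9.29 TPM in parental replicates A and B, 10.54 and 9.53 in B04, and 1.48 and 2.0 in B64. Mean fragment length, read as gene length minus effective length, was long in parental replicate A (277.1 bases), parental replicate B (276.4) and B04 replicate A (271.6), and short in B04 replicate B (225.1), B64 replicate A (220.8) and B64 replicate B (246.1). Fragment length and line therefore cannot be told apart between the parental line and B64. In a fit with fragment-length class, that term rests on the B04 libraries alone, the only line with both classes. Calls for B64 against parental that are lost in such a fit do not decide on fragment length. The methods speak of culture in duplicates without saying whether these were grown separately, so the p-values measure the spread between these libraries, which may be technical.

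The promoters of 3 members are shown because they stand for the 3 expression states described below: Il1rap, expressed and different between the lines, Myd88, expressed in every library, and Il1b, not detected. Each sequence is the 250 bases upstream of the RefSeq transcription start (GRCm38.p6), written 5′ to 3′ on the strand of the gene. Il1rap lies at chr16:26581455-26581704 on the plus strand, Myd88 at chr9:119340019-119340268 on the minus strand, and Il1b at chr2:129371140-129371389 on the minus strand. The Myd88 stretch lies inside the gene span given below (chr9:119335934-119341411), which is from GENCODE and places the 5′ end of the gene further upstream than RefSeq. Capitals mark matches, on either strand, to the GC box (GGGCGG), the TATA box (TATAAA), the AP-1 motif (TGANTCA), the interferon-stimulated response element (ISRE) and the NF-kB motif.
Il1rap: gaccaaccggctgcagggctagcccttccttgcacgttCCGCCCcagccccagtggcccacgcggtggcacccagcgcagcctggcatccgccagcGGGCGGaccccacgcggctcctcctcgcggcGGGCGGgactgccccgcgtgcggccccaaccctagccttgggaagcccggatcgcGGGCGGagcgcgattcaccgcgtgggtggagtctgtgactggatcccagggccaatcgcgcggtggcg
Myd88: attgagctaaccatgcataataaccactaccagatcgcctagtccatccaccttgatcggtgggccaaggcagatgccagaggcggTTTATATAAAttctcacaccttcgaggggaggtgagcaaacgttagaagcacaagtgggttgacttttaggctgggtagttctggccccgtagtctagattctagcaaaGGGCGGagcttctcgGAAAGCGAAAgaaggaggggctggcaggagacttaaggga
Il1b: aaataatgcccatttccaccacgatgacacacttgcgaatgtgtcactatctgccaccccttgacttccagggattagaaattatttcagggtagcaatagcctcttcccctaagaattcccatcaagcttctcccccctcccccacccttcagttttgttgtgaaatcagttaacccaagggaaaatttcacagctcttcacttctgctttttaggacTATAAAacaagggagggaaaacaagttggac
The Il1rap promoter was GC-rich (74.4% GC, against a median of 52.4% over 32851 promoters of the same length). It held 30 CpG dinucleotides, the 94.1 percentile, and 4 GC boxes, a motif found at least once in 32.7% of all promoters. It held no TATA box, a motif of 12.4% of promoters, and no AP-1, ISRE or NF-kB match. The Myd88 promoter held 9 CpG, 1 GC box and 1 ISRE match, the last a motif of 2.98% of promoters, and its 2 TATA matches overlap each other on opposite strands. The promoters of Il1a, Il1b and Il18 and both promoters of Il33 each held a TATA match, that of Il18 on the opposite strand. For Il18 and the first Il33 promoter, the sequence after the start was not found in an annotated transcript of the gene. AP-1 matches, in 6.75% of all promoters, were present upstream of Il1a and in 1 of the 3 promoters of Il1rn. The only NF-kB match, in 3.9% of all promoters, lay in the second of 2 Il1r1 promoters. A match is a stretch of letters and no evidence of binding.

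Of the 9 members, 4 were expressed, 2 were low, meaning above 3 counts in some library but under 1 TPM in every library, and 3 were not detected, meaning at most 3 counts in each library. Expressed were Il1rap, Il1r1, Il1rl1 and Myd88, so transcripts of both ligand-binding chains, the co-receptor and the adaptor were present. Il1rap exceeded 1 TPM only in the parental and B04 libraries, and stood at 0.51 and 0.44 TPM in B64. No ligand gene was expressed in any line.

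The ligand genes were at or near 0 in every library. Il1a (chr2:129299610-129309972) and Il1b (chr2:129364570-129371139), which encode the agonists of Il1r1, each had 1 count in parental replicate A and 0 in the other 5 libraries. Il18 (chr9:50554827-50581840) had 0 counts in all 6 libraries, and 3 counts, the limit that a count of 0 allows, would correspond to 0.272 to 0.318 TPM for it. These limits cover counting error only. Il33 (chr19:29925114-29960718), the nuclear alarmin that binds ST2, had 2 and 1 counts in parental replicates A and B, 0 and 0 in B04, and 0 and 7 in B64, at most 0.17 TPM. The 7 counts stood in B64 replicate B alone, and the other B64 library had none. The antagonist gene Il1rn (chr2:24336853-24351494) had 2 and 7 counts in parental replicates A and B, 3 and 0 in B04, and 2 and 4 in B64, and its groups overlapped. None of these 5 genes had enough counts for the independent filter, so none was tested between lines, and their levels do not show whether the lines differ.

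Il1rap (ENSMUSG00000022514, chr16:26581704-26730117, plus strand) encodes the accessory chain shared by the interleukin-1, interleukin-33 and interleukin-36 receptors. Its normalised read counts were 232.8 and 218.8 in parental replicates A and B, 97.6 and 94.7 in B04, and 37.4 and 33.6 in B64. The lines were ordered parental, B04, B64 with no overlap between neighbours, and replicates of a line lay close together. As group means this was 225.8 ± 9.84 (SD, n = 2), 96.1 ± 2.07 and 35.5 ± 2.64. Relative to the parental line the level was 2.35-fold lower in B04 (log2 change -1.23, SE 0.26) and 6.37-fold lower in B64 (-2.67, SE 0.30). Between the clones it was 2.71-fold lower in B64 (-1.44, SE 0.31). The B64 values rest on 33 and 32 reads, against 244 and 234 in the parental libraries. In RNA from a whole culture, fewer cells with a transcript and less of it per cell cannot be told apart.

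The order of the Il1rap levels held among libraries of like fragment length. Among the long-fragment libraries, B04 replicate A was lower than the parental mean by a log2 ratio of -1.21. Among the short-fragment libraries, B64 was lower than B04 replicate B by -1.42. The RSEM gene length, an average over transcripts weighted by their estimated share, was 3824 bases in B04 replicate A and between 4129 and 4269 bases in the other 5 libraries. The annotation gives Il1rap coding transcripts of 4520, 4438, 3200 and 2306 bases, and the average in B04 replicate A lay about midway between those of 4438 and 3200 bases. In TPM the levels were 3.04 and 2.71 in parental replicates A and B, 1.45 and 1.29 in B04, and 0.51 and 0.44 in B64.

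**Figure D1:**
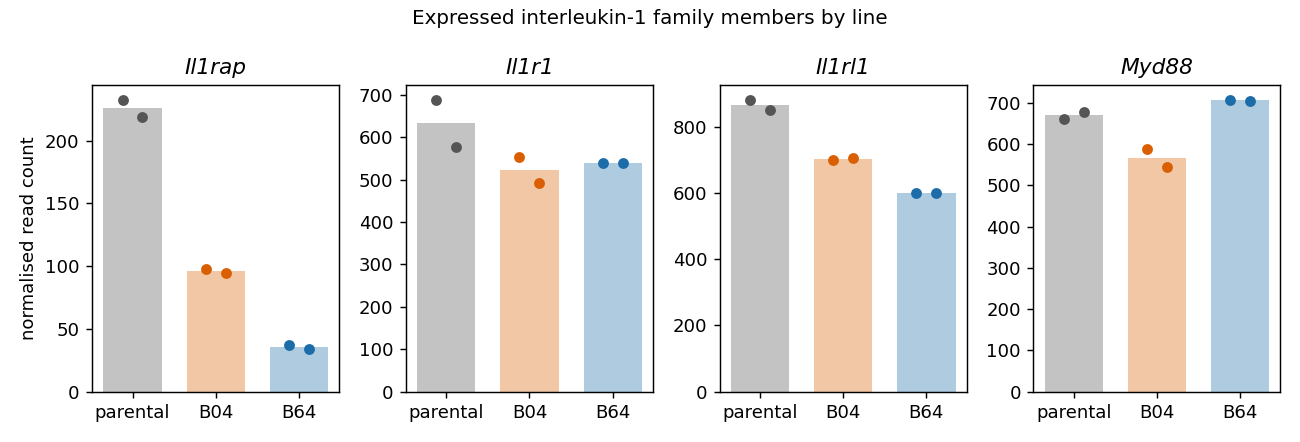
Normalised read counts (y axis, linear from 0, scaled per gene) of the 4 expressed members in the parental line, B04 and B64. Points are the 2 libraries of a line and bars their mean. Il1rap steps down from 225.8 to 96.1 to 35.5, whereas Il1r1 and Myd88 stay between 492.7 and 707.9 in all 6 libraries.

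Apart from Il1rap, 3 of the other 8 members had enough counts to be tested, and 1 of them passed the test in each comparison: Il1rl1 fell in B04 and in B64 relative to the parental line, and Myd88 was higher in B64 than in B04. Over all genes, the DESeq2 test (adjusted p under 0.05) called 24.1% of 13218 genes for B04 against parental, 16.3% of 13218 for B64 against parental and 24.3% of 12855 for B64 against B04. By direction these were 12.9% lower in B04, 7.45% lower in B64 and 13.1% higher in B64 than in B04. A count of 1 among 3 genes cannot be set apart from these shares, and nothing is read from the count for B64 against parental, the comparison in which Il1rap chose the set. The first 2 comparisons share the parental libraries.

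Il1rl1 (ENSMUSG00000026069, chr1:40429570-40465415) encodes ST2, both as the membrane receptor of interleukin-33 and as a soluble decoy. Its normalised counts were 881.4 and 849.2 in parental replicates A and B, 699.5 and 706.4 in B04, and 599.2 and 599.3 in B64. Parental, B04 and B64 libraries did not overlap. The level fell 1.23-fold in B04 (log2 change -0.30, SE 0.11, DESeq2 adjusted p = 0.0377) and 1.44-fold in B64 (-0.53, SE 0.12, DESeq2 adjusted p = 9.43e-05). The difference between the clones was -0.23 (SE 0.12, DESeq2 adjusted p = 0.151). The call in B04 was lost when any of the 6 libraries was left out (DESeq2 adjusted p from 0.0872 to 0.298), and the call in B64 was lost with fragment-length class in the model (-0.54, DESeq2 adjusted p = 0.374). As the fit with fragment-length class takes that term from the B04 libraries alone, the lost B64 call does not decide on fragment length. The RSEM gene length of Il1rl1 was 2959 to 3202 bases in the 6 libraries, nearer to its coding transcript of 2661 bases than to those of 5053 and 5302 bases. Coding transcripts of 375 and 1216 bases are also annotated, so this average does not single out a form. The gene-level counts do not separate the membrane receptor from the soluble decoy.

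Il1r1 (ENSMUSG00000026072, chr1:40225080-40317257) encodes the signalling receptor of interleukin-1 alpha and beta. Its normalised counts were 688.8 and 578 in parental replicates A and B, 553.6 and 492.7 in B04, and 539.1 and 538.3 in B64. Parental replicate A was the highest of the 6, and the clones overlapped each other. The log2 fold change was -0.27 (SE 0.14) in B04 and -0.23 (SE 0.14) in B64, with DESeq2 adjusted p of 0.151 and 0.299. Between the clones it was 0.04 (SE 0.14, DESeq2 adjusted p = 0.896).

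Because all receptor complexes of the accessory chain need a partner, Il1rap was also set against its partners by TPM, which allows levels of different genes to be compared. The ratio of Il1rap to Il1r1 was 0.39 and 0.436 in parental replicates A and B, 0.229 and 0.225 in B04, and 0.0831 and 0.0726 in B64. Relative to Il1rl1 it was 0.179 and 0.181, then 0.115 and 0.0973, then 0.0459 and 0.0394. Relative to Il1rl2, the receptor of the interleukin-36 cytokines, it was 0.36 and 0.352, then 0.215 and 0.233, then 0.0772 and 0.0657. Il1rap was the lower transcript in each pair and library. These ratios repeat the Il1rap difference on which the set was chosen, and are given as a description.

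**Figure D2:**
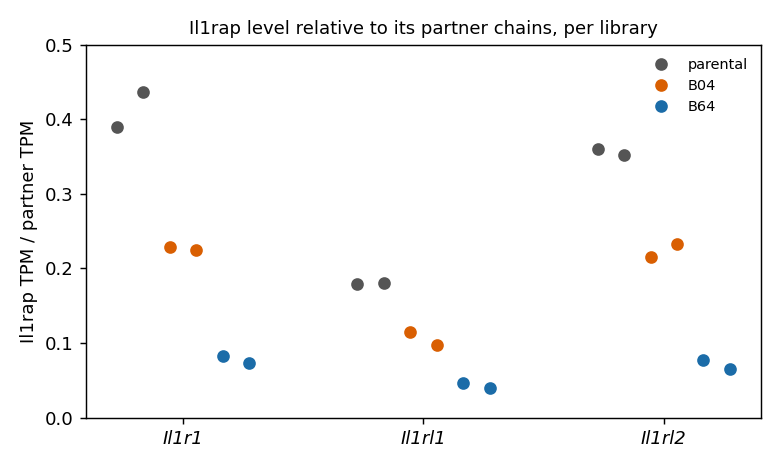
Ratio of the Il1rap TPM to the TPM of its partner chains Il1r1, Il1rl1 and Il1rl2 (y axis, linear from 0). Each point is 1 library, coloured by line. In each pair the parental libraries are highest and the B64 libraries lowest, for Il1r1 from 0.436 down to 0.0726.

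Myd88 (ENSMUSG00000032508, chr9:119335934-119341411, minus strand) encodes the adaptor of the interleukin-1, interleukin-18, interleukin-33 and most Toll-like receptors. Its normalised counts were 661.1 and 678.1 in parental replicates A and B, 587.4 and 544.6 in B04, and 707.9 and 703.4 in B64. B64 libraries were highest and B04 libraries lowest, without overlap. The clones differed by 0.32 on the log2 scale (SE 0.12, DESeq2 adjusted p = 0.0421), higher in B64, while the change from the parental line was -0.24 (SE 0.12, DESeq2 adjusted p = 0.149) in B04 and 0.08 (SE 0.12, DESeq2 adjusted p = 0.785) in B64. The call between the clones was lost when any of the 6 libraries was left out (DESeq2 adjusted p from 0.0864 to 0.331).

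The Myd88 level depended on the unit. In TPM it was 29.98 and 25.86 in the parental libraries, 20.86 in B04 replicate A and 42.57 in B04 replicate B, and 53.42 and 42.48 in B64. B04 replicates thus differed far more in TPM than in counts. The RSEM gene length of Myd88 was 1414, 1572 and 1756 bases in the 3 long-fragment libraries and 916.7, 922.0 and 1104 bases in the 3 short-fragment libraries. The annotation lists a coding transcript of 1960 bases, another of 379 bases and a retained-intron form of 2458 bases. TPM levels of Myd88 therefore moved with fragment length, whose part in them was not tested. Its sign in B04 against parental turned from -0.24 in counts to 0.10 with an offset for effective length.

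**Figure D3:**
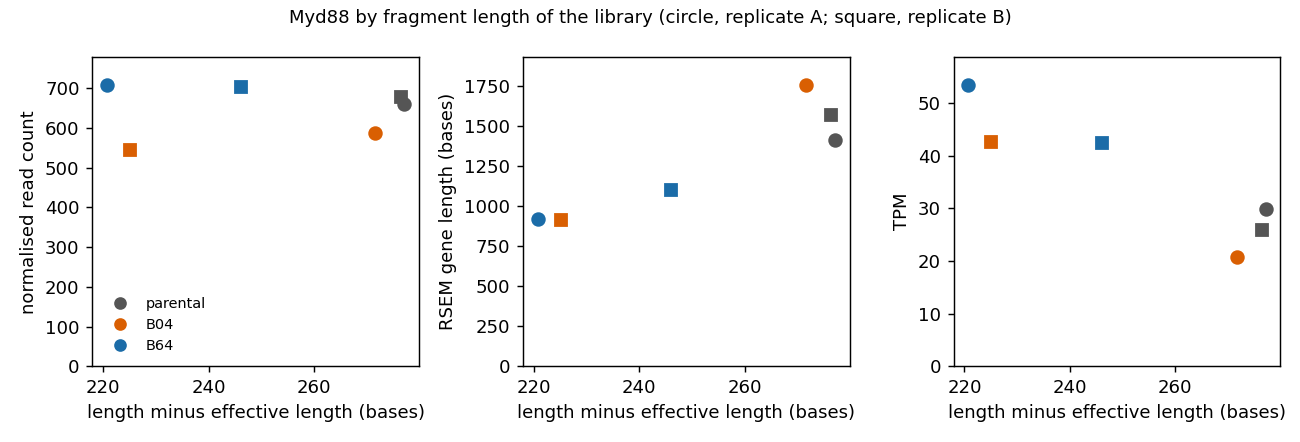
Myd88 normalised read count, RSEM gene length in bases and TPM (y axes, linear from 0) against the fragment length of each library, taken as gene length minus effective length in bases (x axis). Each point is 1 library, coloured by line, circles for replicate A and squares for replicate B. Counts lie between 544.6 and 707.9 throughout, while TPM is at most 29.98 in the 3 long-fragment libraries and at least 42.48 in the 3 short-fragment ones.

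The rest of the family was measured with lists of 6 further ligand or antagonist genes and 7 further receptor genes. Il36a, Il36b, Il36g, Il36rn and Il1f10 were not detected, and Il18bp, a secreted trap for interleukin-18, was low at no more than 27 counts in any library. Of the receptors, Il1r2, the decoy of interleukin-1, Il18r1, Il1rapl1 and Il1rapl2 were not detected, whereas Il1rl2, Il18rap and Sigirr were expressed. Il18rap was thus present without the ligand-binding chain Il18r1, of which at most 1 count was seen in a library. Of the 3 expressed receptors, 2 fell in B04, none passed the test in B64 against parental, and 1 was higher in B64 than in B04. Among all genes tested, 12.9% were called lower in B04, 16.3% were called in B64 against parental, and 13.1% were higher in B64 than in B04. Counts among 3 genes cannot be set apart from these shares.

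Il18rap (chr1:40515362-40551705) had 1170.5 and 1036.3 normalised counts in parental replicates A and B, 773.4 and 787.8 in B04, and 931.0 and 999.8 in B64. The lines did not overlap. It fell 1.41-fold in B04 (log2 change -0.50, SE 0.11, DESeq2 adjusted p = 6.49e-05), and was higher in B64 than in B04 by 0.31 (SE 0.11, DESeq2 adjusted p = 0.0267), a call kept without parental replicate B (0.0445) and lost without any other library (up to 0.317). Il1rl2 (chr1:40324610-40367562) had 503.7 and 461.1 in parental replicates A and B, 382.1 and 326.7 in B04, and 379.4 and 391.1 in B64. It fell 1.36-fold in B04 (-0.44, SE 0.16, DESeq2 adjusted p = 0.0216), a call lost when any of the 6 libraries was left out (0.0523 to 0.336). In B64 its change was -0.32 (SE 0.16, DESeq2 adjusted p = 0.156). Sigirr, an inhibitory member, ranged from 719.3 to 895.8 in the 6 libraries, with log2 fold changes of 0.02 and 0.22 in B04 and B64 that did not pass.

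Il1r1, Il1rl2, Il1rl1 and Il18rap lie within chr1:40074079-40551705, beside the silent Il1r2 and Il18r1. The 10 tested genes on either side of this cluster were therefore listed, a choice made after the receptor values were seen, so that no test is given. Of these 20 flanking genes, 10 were called lower and 0 higher in B04. Their median log2 fold change was -0.35 against 0.00192 over all genes tested. In B64, 6 of the 20 were called lower and 0 higher, with a median of -0.30 against -0.00245. The shares over all genes were 12.9% lower and 11.2% higher in B04, and 7.45% lower and 8.87% higher in B64. Each of the 20 had a fitted value below 0 in B64, from -2.88 to -0.07. Cnot11, Rnf149, Mrps9, Uxs1 and Tpp2 were called lower in both clones. Of these, Rnf149 and Tpp2 stood at -0.47 and -0.41 in B04 and -0.39 and -0.36 in B64. In B64, Il1rl1 at -0.53 was lower than each called neighbour, of which Uxs1 was lowest at -0.44, and only Gm15832 and Gm8210, neither of them called, had lower values. Il1rap lies on chromosome 16, and its 10 tested neighbours had medians of -0.08 in B04 and -0.04 in B64. Of these neighbours, 1 was called higher and 1 lower in each clone, which cannot be set apart from the shares over all genes. The gene called lower was Ostn in both clones, at -5.29 in B04 and -2.16 in B64. Called higher were Trp63 in B04 (3.21) and Mb21d2 in B64 (0.39).

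**Figure D4:**
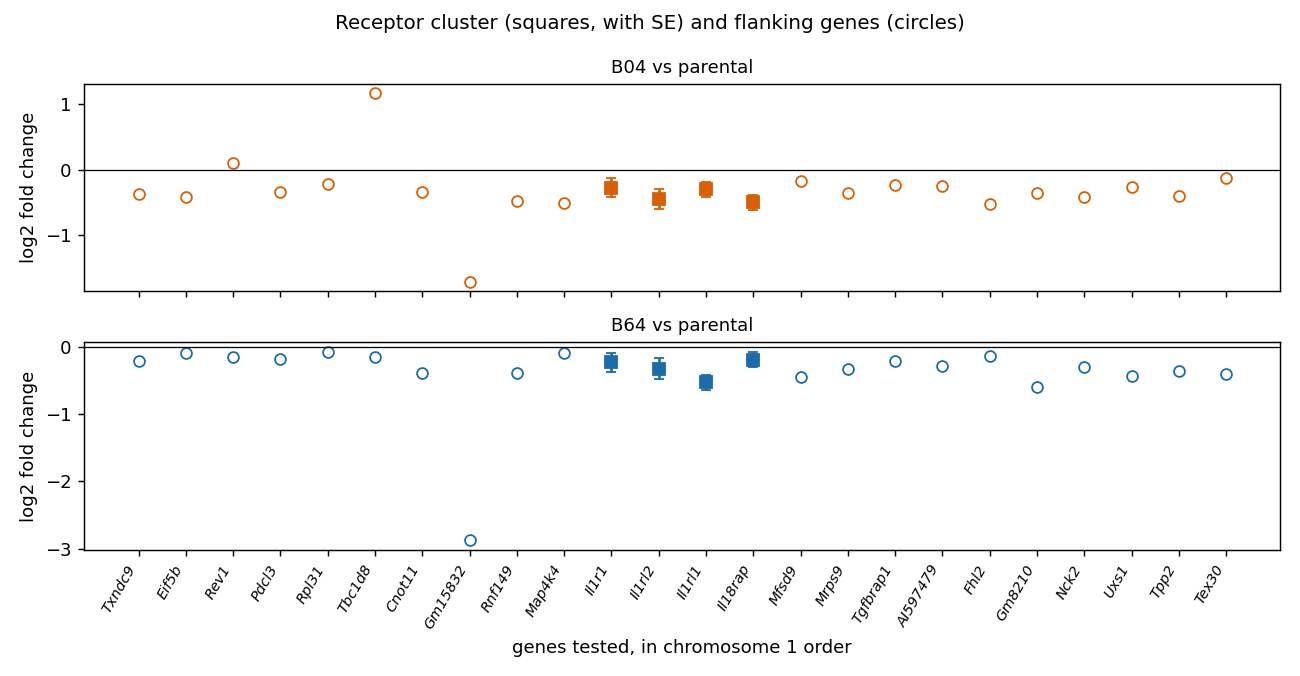
Log2 fold change against the parental line (y axis) of the 4 expressed receptor genes (squares, bars are SE) and the 10 tested genes on either side (circles), in chromosome order, for B04 (top) and B64 (bottom). Each panel has its own y range. In B64 all 24 values are below 0, and the flanking median is -0.30.

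Over all lists of pathway genes, 113 genes beside the members, 25 of 73 tested genes (34.2%) passed the DESeq2 test in B04 (15 higher, 10 lower), 15 of 73 (20.5%) in B64 (13 higher, 2 lower) and 25 of 72 (34.7%) between the clones (16 higher in B64, 9 lower). The shares over all genes were 24.1%, 16.3% and 24.3%, and by direction 11.2% higher in B04 and 8.87% higher in B64. The medians over the tested list genes were -0.02, 0.09 and 0.08, close to those of all genes. Calls under the fragment-length block numbered 13, 3 and 10. The lists were chosen with earlier results of these data known and the counts are descriptions.

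Genes of cytokine processing and release, the inflammasome and pore-forming proteins that mature and let out interleukin-1 beta and interleukin-18, were called higher in B64 in 6 of 11 tested cases and lower in 0 (54.5%, against 16.3% of all genes called and 8.87% called higher), with a median of 0.65. In B04, 3 were higher and 1 lower (36.4%, against 24.1%), with a median of 0.15. Nlrp3, the sensor of the best known inflammasome, had 65.8 and 60.8 normalised counts in parental replicates A and B, 109.4 and 85.5 in B04, and 157.4 and 204.0 in B64. Both B64 libraries lay above the others, a 2.86-fold rise (log2 change 1.51, SE 0.30, DESeq2 adjusted p = 7.97e-06).
Aim2, a sensor of cytosolic DNA, moved in opposite directions in the clones: 384.4 and 332.0 in parental replicates A and B, 245.3 and 250.4 in B04, and 650.1 and 644.5 in B64. It fell by 0.53 on the log2 scale in B04 (SE 0.16, DESeq2 adjusted p = 0.00498), a call lost without parental replicate A, B04 replicate A or B04 replicate B (up to 0.187), and rose by 0.85 in B64 (SE 0.15, DESeq2 adjusted p = 4.75e-07). The clones differed by 1.39 (SE 0.15, DESeq2 adjusted p = 1.96e-17). Gsdmd, which encodes the pore-forming gasdermin D, had 437.9 and 409.6 in parental replicates A and B, 920.3 and 998.5 in B04, and 719.2 and 698.1 in B64. It rose in both clones, by 1.18 (SE 0.12, DESeq2 adjusted p = 5.1e-20) and 0.74 (SE 0.12, DESeq2 adjusted p = 9.52e-08), and was lower in B64 than in B04. P2rx7, the ATP-gated channel upstream of NLRP3, rose by 0.96 in B64 (SE 0.19, DESeq2 adjusted p = 9.56e-06). The caspase genes Casp1 and Casp4 rose by 0.65 and 0.72 in B64 (SE 0.20, DESeq2 adjusted p = 0.00935 and 0.00391). The Casp1 call was lost without parental replicate A or B64 replicate A (up to 0.375), and that of Casp4 without either parental or either B64 library (up to 0.137). Casp1, which cleaves the interleukin-1 beta precursor, also passed in B04 at 0.51 (DESeq2 adjusted p = 0.0414), a call lost when any of the 6 libraries was left out (0.0747 to 0.408). Pycard, which joins sensor and caspase, had too few counts to be tested. Cd68, a lysosomal gene of the leukocyte list, was also higher in B64, at 39.62 and 36.06 TPM against 10.08 to 11.99 in the other 4 libraries. Cd14, of the same list, was at 12.55 and 14.78 TPM in parental replicates A and B, 21.86 and 22.96 in B04, and 19.86 and 23.36 in B64. Ptprc and the myeloid genes Itgam and Adgre1 did not exceed 0.03 TPM, and Csf1r did not exceed 0.07 TPM. The part of cells expressing Cd68 or Cd14 in these results was not tested. With fragment-length class in the model, a term set by the B04 libraries alone, none of the 6 calls for B64 against parental was kept. Calls over all genes went from 16.3% to 2.64%, so the lost calls do not decide on fragment length. The log2 changes in that model were 1.87 for Nlrp3, 0.62 for Gsdmd and 0.82 for Aim2, with DESeq2 adjusted p of 0.0558, 0.223 and 0.225. The Aim2 difference between the clones was kept (1.37).

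Downstream of MyD88, 36 of 38 signalling genes were tested. In B04, 6 were higher and 5 lower (30.6%, against 24.1% of all genes). In B64, 2 were higher and 0 lower (5.56%, against 16.3%). Rel, encoding the NF-kB subunit c-Rel, had 393.0 and 358.2 normalised counts in parental replicates A and B, 846.4 and 735.9 in B04, and 431.5 and 444.7 in B64. B04 stood above both other lines, 2.11-fold over parental (log2 change 1.08, SE 0.14, DESeq2 adjusted p = 6.63e-13). Jun, the AP-1 subunit, fell in B04, from 1031.2 and 1205.5 in the parental libraries to 588.3 and 742.0 (-0.75, SE 0.13, DESeq2 adjusted p = 2.86e-07), with 875.5 and 995.6 in B64. Tnip1, a restraint on NF-kB activation, rose by 0.64 in B04 (SE 0.13, DESeq2 adjusted p = 2.48e-05). The kinase gene Map2k6 and the NF-kB inhibitor gene Nfkbie rose by 1.13 and 0.68 in B04 (DESeq2 adjusted p = 0.0014 and 0.0418), calls lost without parental replicate A or either B04 library (up to 0.0821) and without any of the 6 libraries (0.081 to 0.441). The 2 genes higher in B64 were Ikbkg, the regulatory subunit of the IKK complex, at 0.54 (SE 0.09, DESeq2 adjusted p = 1.39e-07), which also rose in B04 by 0.44 (DESeq2 adjusted p = 2.06e-05), and Nfkbib, an NF-kB inhibitor, at 0.28 (DESeq2 adjusted p = 0.0191). Nfkbib fell in B04 by 0.49 (DESeq2 adjusted p = 3.28e-06). Among TIR adaptors and Toll-like receptors, 5 of 16 genes were tested and 10 were not detected, Tlr2 and Tlr9 among them. Tlr3, the endosomal receptor of double-stranded RNA, which signals without MyD88, rose by 0.63 in B64 (SE 0.19, DESeq2 adjusted p = 0.00924), a call lost without either parental or either B64 library (up to 0.276).

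Of 28 genes known to be induced by interleukin-1, 17 were tested. In B04, 6 were higher and 2 lower (47.1%, against 24.1% of all genes), and in B64, 4 were higher and 2 lower (35.3%, against 16.3%). The 2 lower in B64 were Birc3 (-3.49, SE 1.05, DESeq2 adjusted p = 0.00838) and Tnfaip3 (-0.41, SE 0.15, DESeq2 adjusted p = 0.0412). Lower in B04, beside Ptgs2, was Mmp13 (-3.11, SE 0.92, DESeq2 adjusted p = 0.00503). C3 was called higher in B04 (1.59, SE 0.59, DESeq2 adjusted p = 0.0349) and in B64 (1.65, SE 0.60, DESeq2 adjusted p = 0.0379). Vcam1 was called higher in B04 (0.30, SE 0.07, DESeq2 adjusted p = 0.000206). Birc3, Tnfaip3, Mmp13, C3 and Vcam1 fell short of the count or size limits for named genes given below. Ptgs2, encoding the prostaglandin synthase COX-2, moved in opposite directions in the clones. Its normalised counts were 9012.9 and 8490.2 in parental replicates A and B, 5592.7 and 5057.8 in B04, and 12751.5 and 12280.9 in B64. It fell by 0.72 in B04 (SE 0.06, DESeq2 adjusted p = 5.41e-27) and rose by 0.52 in B64 (SE 0.06, DESeq2 adjusted p = 2.43e-14). Ptges, the prostaglandin E synthase that acts next, rose by 0.60 in B04 (SE 0.10, DESeq2 adjusted p = 1.9e-08). Lcn2, the iron-binding lipocalin, rose in both clones, from 741.2 and 715.5 in the parental libraries to 1053.4 and 1053.5 in B04 and 1445.3 and 1199.6 in B64 (0.53 and 0.86, SE 0.11, DESeq2 adjusted p = 3.44e-05 and 1.92e-12). The acute-phase gene Saa3 rose by 0.74 and 0.66 (SE 0.20, DESeq2 adjusted p = 0.00117 and 0.00721), the B04 call being lost without replicate A of the parental line or of B04 (up to 0.0947) and the B64 call without parental replicate A or either B64 library (up to 0.246). The NF-kB inhibitor gene Nfkbia rose by 0.75 in B04 (SE 0.23, DESeq2 adjusted p = 0.006), a call lost without parental replicate A or B04 replicate A (up to 0.219). Cxcl2, Ccl7, Ccl20, Csf3, Mmp3 and Tnf were not detected in any line.

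**Figure D5:**
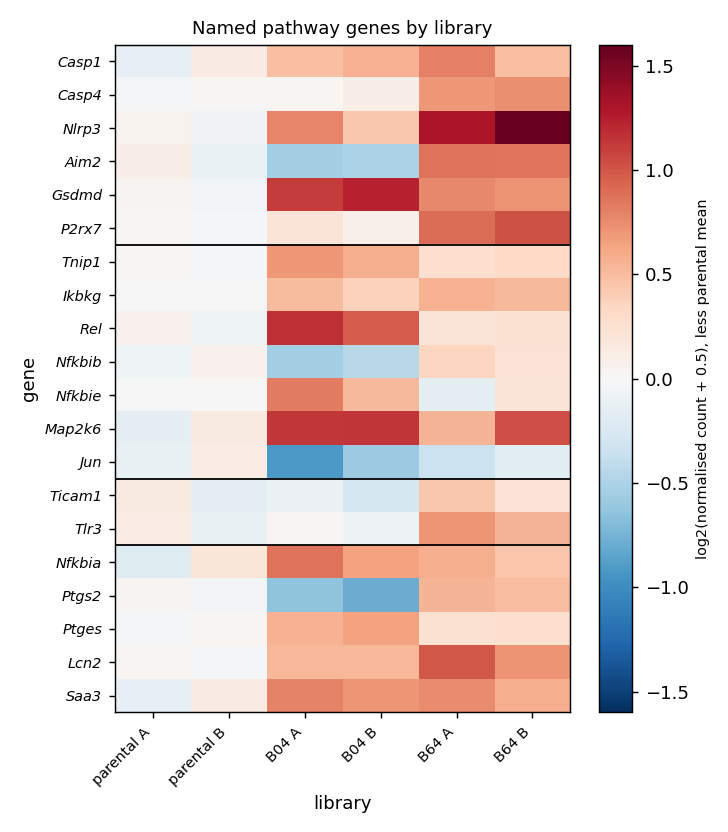
Named pathway genes (rows, grouped by lines into processing and release, MyD88 signalling, Toll-like receptors and adaptors, and interleukin-1 targets) in the 6 libraries (columns). Colour is log2(normalised count + 0.5) less the parental mean, red higher and blue lower. Aim2 and Ptgs2 are blue in B04 and red in B64, and Nlrp3 reaches 204.0 normalised counts in B64 replicate B against 60.8 and 65.8 in the parental libraries.

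The 5 genes whose pattern over the 6 libraries was nearest to that of Il1rap were Mrc2, Thbs1, Morc4, Plpp6 and Syk, out of 10462 genes with a mean normalised count of at least 50. Nearness was the Euclidean distance of log2(normalised count + 0.5) less the parental mean, from 0.711 for Mrc2 to 1.062 for Syk. Mrc2, an endocytic collagen receptor, had 306.2 and 338.6 normalised counts in parental replicates A and B, 192.4 and 151.7 in B04, and 68.0 and 37.8 in B64. Thbs1, the matrix glycoprotein thrombospondin-1, had 317.7 and 287.1, then 146.8 and 170.0, then 69.1 and 58.9. Morc4 had 234.7 and 246.0, then 100.3 and 92.6, then 48.7 and 62.0. Syk, a cytoplasmic tyrosine kinase of immune receptors, had 226.1 and 168.3, then 107.6 and 81.4, then 39.6 and 55.7. The order of the lines in these genes follows from how they were chosen. With a pseudocount of 5, or a mean of at least 100, Fgfr1 took the place of Plpp6. They lie on chromosomes 11, 2, X, 19 and 13, none with Il1rap on chromosome 16. The likeness rests on 6 libraries of 3 lines.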

How the data were processed

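RNA-seq of 6 libraries was analysed. The authors aligned reads to mm10 with STAR and quantified genes with RSEM, and the annotation release is not given in the sources used here. The deposited expected counts are RSEM estimates that divide shared reads among genes. They were rounded to whole numbers. The deposited TPM values, scaled by the authors' RSEM run for effective length and library total, served for levels between genes. Gene length and effective length came from the same tables, and FPKM was not used. Symbols and coordinates are from GENCODE M21 (GRCm38, 53620 of 53801 identifiers, 99.66%), and promoters from RefSeq tables. Counting is not stated to use strand.

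Groups and replicate letters came from sample titles. All 6 libraries entered 1 DESeq2 (version 1.42.0, R 4.3.3) fit with no term but the group. A Wald test with independent filtering and no shrinkage was used, and calls needed an adjusted p (Benjamini-Hochberg) under 0.05. Normalised counts are divided by DESeq2 size factors. Alternatives used edgeR (version 4.0.16), limma (version 3.58.1) on log2(TPM + 1) and log2(TPM + 0.1), other normalisations, filters and blocks, and fits without single libraries. The tests were checked on simulated counts with 200 changed genes.

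Replicates were distinct libraries: their chi-square over degrees of freedom was 6.815 in the parental line, 6.167 in B04 and 5.086 in B64. Precision is limited by 2 libraries per line and, for low genes, by counting.

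The members and lists were chosen with earlier results of these data known. Named were all 9 members, family genes above 3 counts in any library, and list genes called with a mean normalised count of at least 100 and an absolute log2 fold change of at least 0.5, 24 genes beside the members. Nearest genes were sought at a mean of at least 50.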

Additional observations from a re-analysis of the deposited data

Results flagged for a closer look

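B04 and B64 differed from each other in several genes whose change from the parental line was compared, by the DESeq2 test of B64 against B04. Among members and family receptors these were Myd88 (log2 difference 0.32, DESeq2 adjusted p = 0.0421, B64 higher in both libraries) and Il18rap (0.31, DESeq2 adjusted p = 0.0267), the calls that leaving out libraries removed.

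Higher in both B64 libraries than in both B04 libraries were Aim2 by 1.39, Ptgs2 by 1.23, Nlrp3 by 0.89, P2rx7 by 0.82, Nfkbib by 0.77, Tlr3 by 0.66, Casp4 by 0.65, Ticam1 by 0.52, Jun by 0.49 and Lcn2 by 0.33 on the log2 scale. Lower in both B64 libraries were Rel at -0.85, Gsdmd at -0.44, Tnip1 at -0.35 and Ptges at -0.34. Over all genes tested, 24.3% were called between the clones. Jun, Lcn2, Gsdmd, Tnip1 and Ptges differed by less than 0.5, so their calls were not followed through the other fits. Of the 10 named calls between the clones, which include Il18rap, 5 were kept in each fit without 1 library (Aim2, Nfkbib, P2rx7, Ptgs2 and Rel). The same 5 were kept with fragment-length class in the model. Among libraries of short fragments alone, the Aim2 and Ptgs2 differences had the same direction.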

How the results depend on the processing

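The count of members called, 1 in each comparison, became 0 in B04 against parental and in B64 against B04 with each pair of groups fitted alone, without independent filtering, with the replicate block, with the fragment-length block and with limma on TPM at either pseudocount or without its filter. The fragment-length block also gave 0 in B64 against parental, and an effective-length offset gave 0 between the clones. All 3 edgeR settings gave 3 in B04 and 2 between the clones, adding Il1r1 and Myd88 in B04 and Il1rl1 between the clones (edgeR adjusted p = 0.0493, 0.0268 and 0.025 with TMM). Without single libraries the counts were 0 to 0 in B04, 0 to 0 between the clones and 1 to 1 in B64. The Il1rap log2 fold changes ranged without single libraries from -1.28 to -1.19, from -2.75 to -2.60 and from -1.51 to -1.36, were -0.71, -1.39 and -0.68 on log2(TPM + 1), and were -1.02, -2.37 and -1.36 on log2(TPM + 0.1).

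Pathway calls, 25 in B04, 15 in B64 and 25 between the clones, became 13, 3 and 10 with the fragment-length block, 11, 6 and 9 with limma at a pseudocount of 0.1, 15, 6 and 13 at 1, and 8, 6 and 9 without its filter. edgeR gave 23 in B64 with TMM or DESeq2 size factors and 27 when only genes of 0 counts were removed. Without single libraries they were 13 to 20 in B04, 7 to 13 in B64 and 11 to 21 between the clones. The lowest came without parental replicate A or B04 replicate A, without parental replicate A or B64 replicate A, and without B64 replicate A. Of the named calls, 8 of 15 in B04, 7 of 11 in B64 and 5 of 10 between the clones were kept in each such fit.

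Replicate letters were not taken as pairs, since deviations of same-letter libraries correlated at 0.107 for B04 and parental, -0.0055 for B64 and parental and -0.033 for B64 and B04 over 11996 genes. The replicate block gave 19, 13 and 19 pathway calls.

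Signs turned for Il1r1 between the clones without B04 replicate B (-0.040, the lowest of a range up to 0.131 without single libraries) and for Myd88 in B04 with an effective-length offset (0.10), limma at 1 (0.097), at 0.1 (0.098) and without the filter (0.097). For Myd88 the effective lengths in those settings differ by fragment class, whose part in the turned signs was not tested. The cause of the other changes was not tested either. Limma on TPM moved the share of calls that were higher from 46.4% to 69.5% in B04, from 54.3% to 68.6% in B64 and from 54.2% to 46.7% between the clones, and the fragment-length block to 68.8% in B64. Depth limits the ligand genes, which had at most 7 counts.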
